A study of Mus musculus with 9 samples.

Results

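Fatty acid desaturases are membrane enzymes that put double bonds into acyl chains. The genes described here are the stearoyl-CoA desaturases Scd1, Scd2, Scd3 and Scd4 and the fatty acid desaturases Fads1, Fads2, Fads3 and Fads6. They were chosen by name, through every probe set (an exon-level unit of the array) whose platform annotation gave a single gene symbol, that of a member or its older synonym. All 8 genes were measured, by 71 of the 154736 probe sets, among 14507 genes in all. A gene's value is the median log2 intensity of its probe sets. Values are log2 levels or differences of log2 levels throughout. A higher level of a gene than of another is not read as more RNA, and pairs of genes are compared only in how their difference on an array shifted between compartments.

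The study asked which genes mark each epithelial compartment of mouse tail skin. The tail epidermis of adult, age-matched wild-type females of C57BL6/CBA background, with no treatment, was microdissected into sebaceous gland (SG), hair follicle (HF) and the epidermis between follicles (interfollicular, IFE). Each compartment gave 3 biological replicates, each a pool of dissected pieces, on 9 exon arrays in all. The labels do not say how many animals went into a pool, so p-values measure the spread between these pools.

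Stearoyl-CoA desaturases place the first double bond into saturated acyl-CoA, which yields the monounsaturated chains of triglycerides, wax esters and cholesterol esters. FADS1 and FADS2 act in the making of polyunsaturated fatty acids, and FADS3 acts on sphingoid bases. Loss of Scd1 in the mouse gives the asebia phenotype, with shrunken sebaceous glands and sparse hair. The sebaceous gland fills its cells with such lipids and releases them as sebum.

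Sebocyte, suprabasal and hair shaft markers were highest on the arrays titled for their compartments, although on 9 of 9 arrays the description held an array file named for a different compartment. Groups were taken from the titles. The mean log2 level of 10 sebocyte genes was 9.96 to 10.45 on SG arrays, 8.05 to 8.62 on HF arrays and 6.50 to 6.83 on IFE arrays. For 8 suprabasal epidermal genes it was 11.62 to 11.92 on IFE arrays, 10.16 to 10.38 on SG arrays and 10.18 to 10.70 on HF arrays. For 9 hair shaft and inner root sheath genes it was 11.85 to 12.50 on HF arrays and 6.36 to 6.45 on IFE arrays. The same list stood at 7.47 and 7.60 on SG replicates 1 and 2 and at 10.25 on SG replicate 3, which stood apart. For 10 genes of the resting hair follicle the level was 8.61 to 8.77 on SG arrays, near the 8.88 to 8.94 on HF arrays and above the 7.22 to 7.29 on IFE arrays. For 4 melanocyte genes it was 6.96, 8.17 and 8.53 on SG replicates 1 to 3, 6.92 to 7.09 on HF arrays and 6.66 to 7.36 on IFE arrays. The resting follicle list thus moved with SG against IFE. The melanocyte list did so on SG replicates 2 and 3, while SG replicate 1 lay within the IFE range. For 9 immune cell genes the level was 7.05 to 7.31 on SG arrays, 6.43 to 6.65 on HF arrays and 6.68 to 6.93 on IFE arrays. The part of these lists in the results was not tested. HF replicate 2 had the highest sebocyte level of the HF arrays, 8.62 against 8.05 and 8.15. Of 9 adipocyte genes, 8 were not called in any comparison, and the exception was Fabp4. It was higher in HF (7.14) and in SG (2.13) than in IFE. Against IFE, it was not called in SG without SG replicate 3 (1.30), IFE replicate 2 (2.12) or IFE replicate 3 (1.56). Nor was it called there with the closing letter of the array file name as a block (1.93). The median intensity of an array lay between 176 and 234. In bulk pieces such as these, fewer cells of a type and less RNA per cell cannot be told apart.

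The Scd and Fads families differed in where they were highest. Scd1 and Scd3 were highest in SG, Scd2 was lowest in SG and highest in IFE, and Fads3 was highest in HF, with Fads1 and Fads2 above IFE there by smaller differences. Scd4 was highest on average in SG by a smaller difference, and Fads6 showed no difference that passed. In limma's moderated F test over the 3 compartments, 7 of the 8 genes had a Benjamini-Hochberg adjusted p under 0.05, against 24.5% of all genes. The adjusted p was 1.78e-05 for Fads3, 2.45e-05 for Scd3, 8.57e-05 for Scd1 and 0.643 for Fads6.

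**Figure D1:**
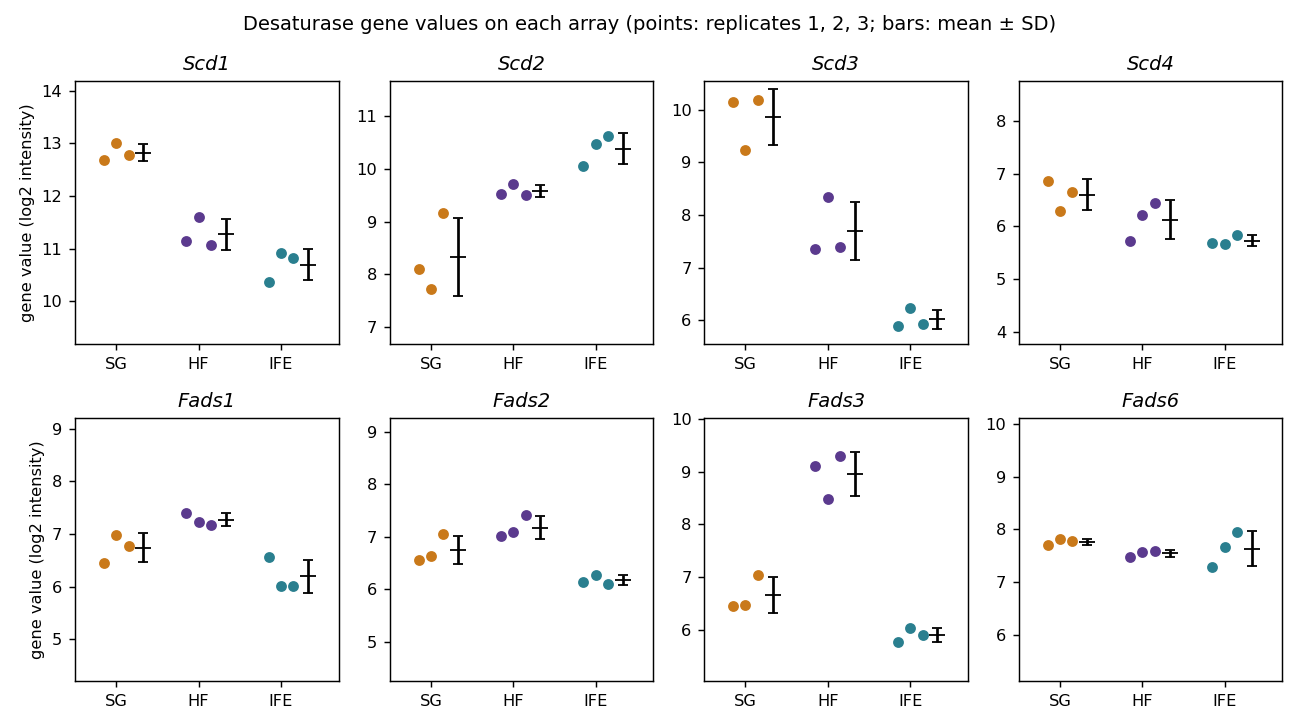
Gene value (log2 intensity, vertical axis) of each desaturase gene on each array, by compartment (SG sebaceous gland, HF hair follicle, IFE interfollicular epidermis). Points are replicates 1 to 3 from left to right, bars give mean ± SD (n = 3), and each panel spans the same log2 range. Scd1 and Scd3 are highest in SG, Scd2 in IFE and Fads3 in HF, while the Fads6 means lie between 7.55 and 7.77.

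Called genes are those whose adjusted p was below 0.05 and whose log2 difference was 1 or more in size. Against IFE, SG had 3 of the 8 genes called, Scd1 and Scd3 higher and Scd2 lower, where 9.49% of all genes were called (2.54% higher and 6.96% lower). Against IFE, HF had 3 of 8 called, Scd3, Fads1 and Fads3, all higher, where 6.31% of all genes were called (2.96% higher and 3.36% lower). Between SG and HF, 4 of 8 were called, Scd1 and Scd3 higher in SG and Scd2 and Fads3 lower, where 5.11% of all genes were called (1.81% higher in SG and 3.3% lower). The groups did not overlap for 6 of 8 genes in each of these comparisons, against 34.9%, 32.8% and 29.3% of all genes in the same order. The comparisons share arrays, so these counts are not independent of each other.

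Scd1 encodes the main stearoyl-CoA desaturase of liver, fat and skin. Its value was 12.69, 13.01 and 12.78 on SG replicates 1 to 3, 11.14, 11.61 and 11.07 on the HF replicates, and 10.36, 10.91 and 10.82 on the IFE replicates. All SG arrays lay above all others, and the HF arrays lay above the IFE arrays by a narrow margin. Scd1 was 4.37-fold higher in SG than in IFE (log2 difference 2.13 ± 0.21 SE, n = 3 per group, limma adjusted p = 4.90e-05). It was 2.93-fold higher in SG than in HF (1.55 ± 0.21, limma adjusted p = 0.00101). The difference between HF and IFE, 0.58 (95% interval 0.12 to 1.03), did not pass (limma adjusted p = 0.0971). With the brightest probe set alone, the difference between SG and HF was 0.94 and fell below the log2 threshold.

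Scd3 encodes a skin desaturase known from sebaceous glands and the Harderian gland. Its value was 10.15, 9.24 and 10.19 on the SG replicates, 7.36, 8.34 and 7.38 on the HF replicates, and 5.90, 6.23 and 5.93 on the IFE replicates. The compartments formed 3 steps without overlap. Scd3 was 14.3-fold higher in SG than in IFE (log2 difference 3.84 ± 0.30 SE, limma adjusted p = 1.05e-05) and 4.48-fold higher in SG than in HF (2.16 ± 0.30, limma adjusted p = 0.00127). In HF it was 3.20-fold higher than in IFE (1.68 ± 0.30, limma adjusted p = 0.00361). The HF step held its highest value on HF replicate 2, the HF array with the highest sebocyte level; the part of gland RNA in it was not tested. Without HF replicate 2 the difference between HF and IFE was 1.35 and stayed called (limma adjusted p = 0.0106). Over the brighter probe sets of each gene (the upper 50% by mean) it was 0.91 and was not called.

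Scd2, known from brain and from the skin of newborn mice, went the opposite way. Its value was 10.05, 10.47 and 10.62 on the IFE replicates, 9.53, 9.72 and 9.50 on the HF replicates, and 8.11, 7.72 and 9.16 on the SG replicates. Every SG array lay below every HF array, and every HF array below every IFE array. Scd2 was 4.15-fold lower in SG than in IFE (log2 difference -2.05 ± 0.31 SE, limma adjusted p = 0.000716) and 2.39-fold lower in SG than in HF (-1.25 ± 0.31, limma adjusted p = 0.0235). The difference between HF and IFE, -0.80 (95% interval -1.47 to -0.13), did not pass (limma adjusted p = 0.118). The highest SG value was that of SG replicate 3, the SG array with the highest hair shaft and root sheath level. Without that array the difference from IFE was -2.47 and that from HF -1.67, both called. Between SG and HF the call ended without SG replicate 1 (-1.14), SG replicate 2 (-0.95), HF replicate 1 (-1.28), HF replicate 2 (-1.19) or HF replicate 3 (-1.30), with adjusted p between 0.0667 and 0.0947. A block on the closing letter of each array's file name (the letter block) ended it too (-1.17). These file names, on 9 of 9 arrays, name a different compartment than the title. Whether a letter belongs to the titled array is therefore not known. In that block SG replicate 1, HF replicate 1 and IFE replicate 3 share a letter with no other array. They add nothing to its differences, so a call it ended cannot be laid to the letter.

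Scd4, a member of the family known from heart, was measured by 5 probe sets. Its value was 6.87, 6.29 and 6.65 on the SG replicates, 5.73, 6.21 and 6.45 on the HF replicates, and 5.69, 5.66 and 5.84 on the IFE replicates. The SG arrays lay above the IFE arrays, and the HF arrays overlapped the SG arrays. The difference between SG and IFE, 0.87 ± 0.22, had a limma adjusted p of 0.0134 and stayed below the log2 threshold. It was called with quantile normalization (1.01), with median centring (1.11), with the brightest probe set (2.22) and without SG replicate 2 (1.03). The differences between HF and IFE (0.40) and between SG and HF (0.47) did not pass, but with the brightest probe set the latter was called (1.73, limma adjusted p = 0.00567).

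The probe sets of an Scd gene did not all move by the same amount. Against IFE, all 8 Scd3 probe sets were called higher in SG, by 1.51 to 5.33, and 6 of 7 Scd2 probe sets were called lower, with the exception at -0.42. Of 10 Scd1 probe sets, 9 rose in SG over IFE and 1 fell. Of 5 Scd4 probe sets, 2 were called higher in SG than in IFE, and the differences ran from -0.32 to 2.22. Over all desaturase genes, 25 of 71 probe sets were called higher and 7 lower in SG than in IFE, where 15.4% of all probe sets were called, 3% higher and 12.4% lower. In HF against IFE, 28 were higher and 1 was lower, where 6.76% of all were called, 2.96% higher and 3.81% lower. In SG against HF, 16 were higher and 15 lower, where 5.78% of all were called, 1.53% higher and 4.24% lower. Probe sets of a gene read the same RNA and are not replicates.

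**Figure D2:**
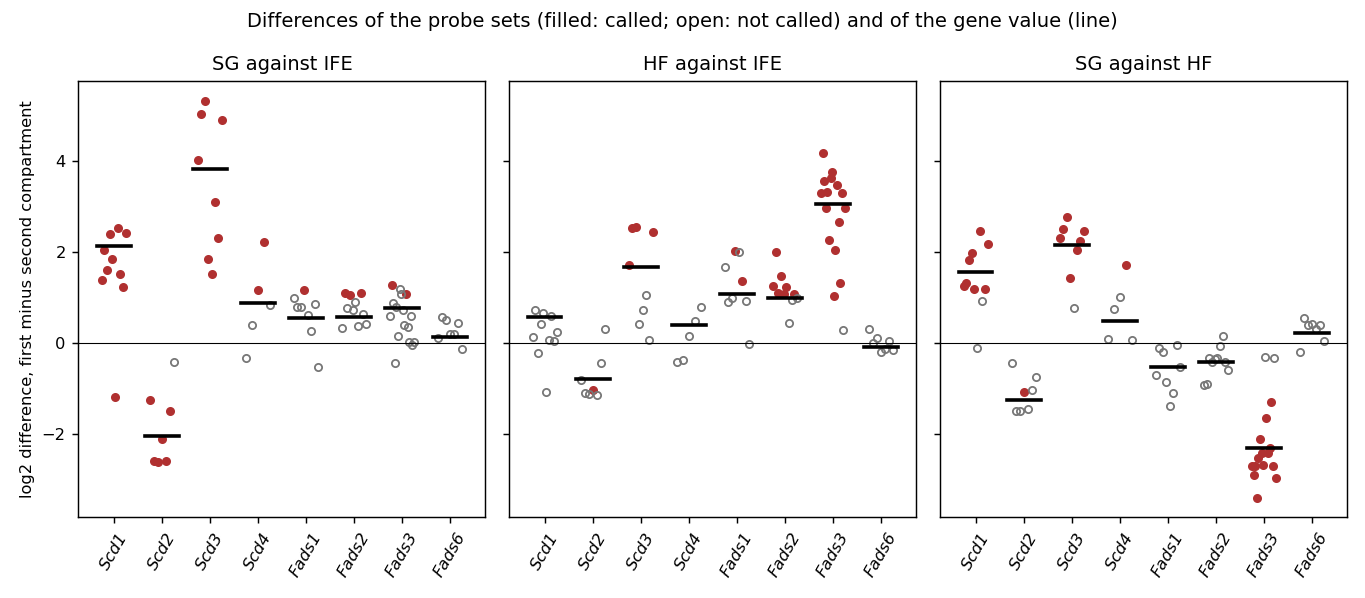
Log2 difference (vertical axis) of every desaturase probe set between SG and IFE, HF and IFE, and SG and HF. Filled points are called, open points are not, and the line is the difference of the gene value. The Scd3 points are all above 0 in each panel, and 1 Scd1 point lies at -1.18 between SG and IFE.

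The Scd1 probe set that went the other way, 5229129 in the platform's numbering, read 9.01, 8.34 and 9.56 on the SG replicates, 8.91, 9.16 and 9.18 on the HF replicates and 9.86, 10.30 and 10.28 on the IFE replicates. Its difference between SG and IFE was -1.18 ± 0.30 (limma adjusted p = 0.0199 over all probe sets). Over the 9 arrays, which share their RNA, its Pearson r was -0.67 with the median of the other Scd1 probe sets and 0.86 with the Scd2 value. Among the Scd4 probe sets, 5431867 was the brightest and differed most between SG and IFE (2.22 ± 0.35, limma adjusted p = 0.00208). Its r was 0.96 with the Scd1 value and 0.83 with its own gene's other probe sets. The other Scd4 probe sets also had a higher r with another member than with their own gene's other probe sets. These were 4354934 (0.23 against -0.60), 4544281 (0.56 against 0.15), 5105798 (0.86 against 0.58) and 5499298 (0.71 against 0.51). Of the Scd3 probe sets, 4836706, 5368787 and 5510117 had an r of 0.98, 0.97 and 0.91 with the Scd1 value. Their r with their own gene's other probe sets was lower, at 0.96, 0.94 and 0.89. The remaining Scd3 probe sets were closer to their own gene. The Scd genes are close copies, and without probe sequences signal from a copy cannot be told apart from that of the named gene. These probe sets were singled out after their values were seen.

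**Figure D3:**
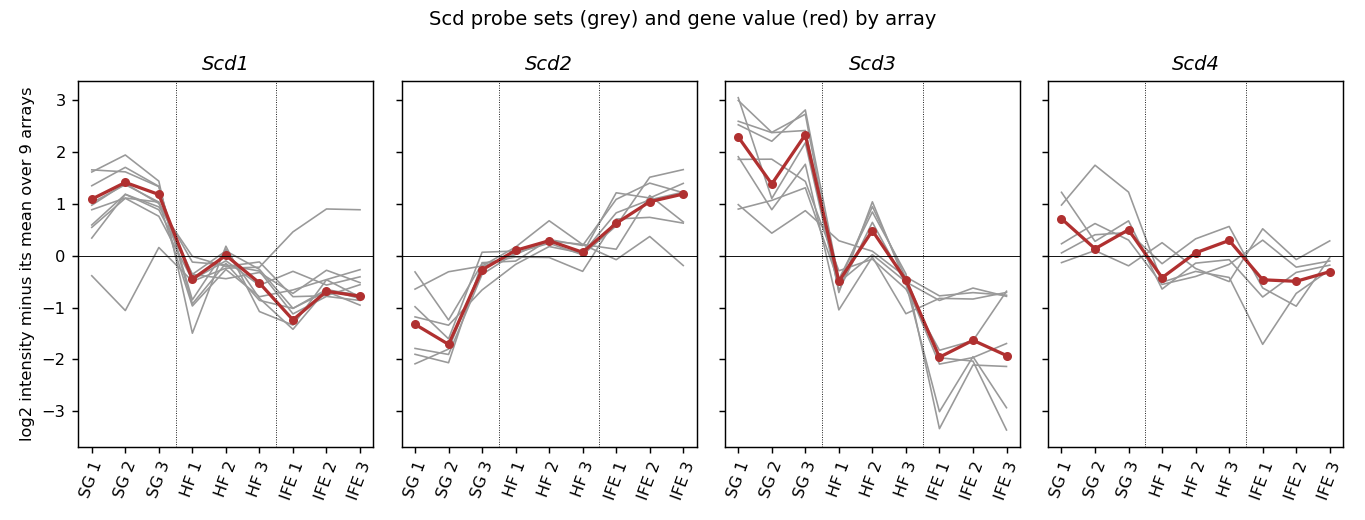
Log2 intensity of each Scd probe set (grey) and of the gene value (red), each minus its mean over the 9 arrays (vertical axis), by array. Lines only join the values of a probe set, since replicates have no order. The Scd1 and Scd3 lines are high on SG arrays, the Scd2 lines are high on IFE arrays, and a single Scd1 line runs like those of Scd2.

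Changes within the Scd family were unequal. The difference between 2 genes on the same array was compared between a compartment and the other arrays for 12 pairs within a family and 3 compartments, 36 tests in all. Scd1 minus Scd2 was higher in SG than elsewhere by 3.49 and Scd2 minus Scd3 was lower in SG by 4.65, each with the SG arrays apart from the other 6 (exact two-sided permutation p = 0.0119, adjusted p = 0.0476). Of the 6 Scd pairs, 5 passed for SG, and Scd1 minus Scd3 did not (-1.16, exact permutation p = 0.0476, adjusted p = 0.0952). Scd3 minus Scd4 (2.33), Scd1 minus Scd4 (1.17) and Scd2 minus Scd4 (-2.33) passed with the same p, which is the smallest that 84 splits of the arrays can give. They passed the adjustment because 9 of the 36 tests shared that p. The pairs share genes and arrays, so these passes are not independent of each other. With an array left out the smallest p is 0.0179 or 0.0357, so tests on fewer arrays say nothing about stability. None of the 36 passed with the brightest probe set or with the brighter probe sets. The tests are adjusted together, so fewer tests at the smallest p can end every pass at once. These counts therefore do not show whether a given shift was lost.

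**Figure D4:**
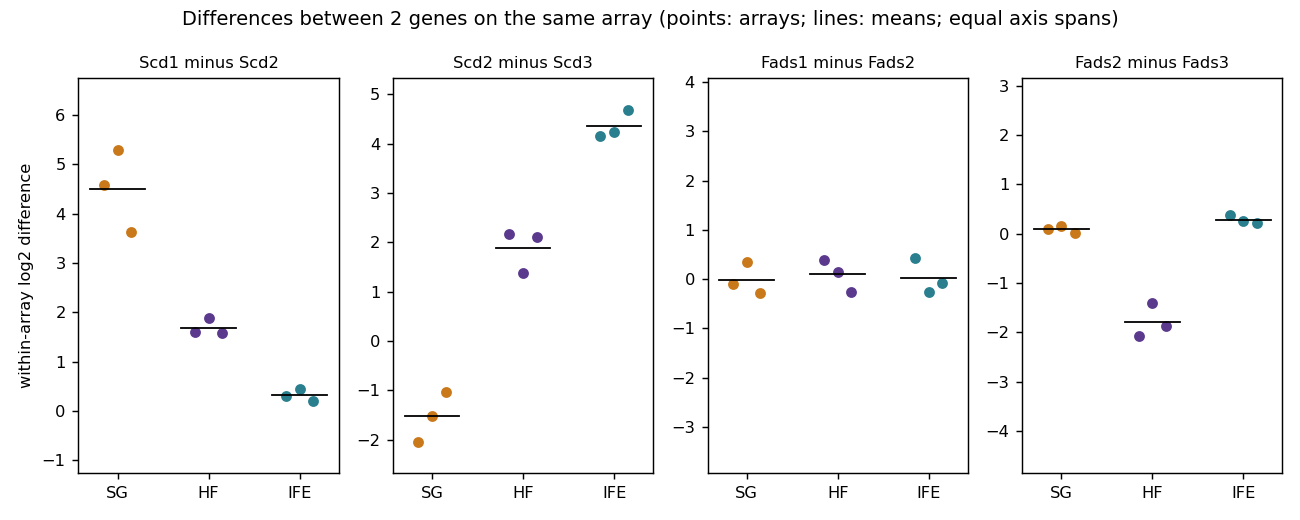
Within-array log2 difference between 2 desaturase genes (vertical axis, equal spans) for 4 of the 12 pairs, by compartment. Points are arrays and lines are means. Scd1 minus Scd2 and Scd2 minus Scd3 step from SG through HF to IFE, Fads1 minus Fads2 overlaps among compartments, and Fads2 minus Fads3 is low on HF arrays.

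On the chromosome, the RefSeq gene table places Scd3, Scd2, Scd4 and Scd1 next to each other in this order, with 0 other coding genes between them. Scd2, which was lowest in SG, thus lies between Scd3 and Scd4. Fads3, Fads2 and Fads1 likewise follow each other on the same chromosome, 19, and Fads6 lies on chromosome 11. Promoter windows were found for 5 of the 8 genes, Scd3, Scd4, Fads2, Fads3 and Fads6. Scd3 and Scd4 are shown as the Scd genes that have a window. Each window holds the 250 bases before the gene start (RefSeq, GRCm38.p6, plus strand, chr19:44203038-44203287 for Scd3 and chr19:44333076-44333325 for Scd4). Capitals mark the motif TTTAAA, and neither TATAAA nor its complement, nor CCAAT on either strand, is in these windows.
Scd3: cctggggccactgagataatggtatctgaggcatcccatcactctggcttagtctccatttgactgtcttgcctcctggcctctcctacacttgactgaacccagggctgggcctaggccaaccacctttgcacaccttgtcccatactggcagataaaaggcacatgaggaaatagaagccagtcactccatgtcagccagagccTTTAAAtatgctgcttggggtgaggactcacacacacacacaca
Scd4: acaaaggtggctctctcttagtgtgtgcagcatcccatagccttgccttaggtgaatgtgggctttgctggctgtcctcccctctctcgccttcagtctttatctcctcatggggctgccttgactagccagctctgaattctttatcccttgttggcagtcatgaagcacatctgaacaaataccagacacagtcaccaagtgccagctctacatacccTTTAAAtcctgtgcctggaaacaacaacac
The motif starts 44 bases before the gene start in Scd3 and 30 bases before it in Scd4, and 12.1% of 32851 windows of this length hold it. TATAAA is in 12.4% of windows and CCAAT in 33.8%. In a global alignment, 59.8% of the columns of the Scd3 and Scd4 windows were identical. For the other 9 pairs of windows the share was 44.9% to 50.2%. The windows of Scd3 and Scd4 also held 0 matches to AGGTCA, a nuclear receptor half-site found in 14.0% of windows, or to GGGCGG, found in 32.7%. The Fads6 window, not shown since Fads6 did not pass in any comparison, held AGGTCA 2 times and GGGCGG 1 time. A match is a stretch of letters, not a binding site.

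In the Fads family the HF stood apart, mainly through Fads3. Fads3 was 9.10, 8.48 and 9.29 on the HF replicates, 6.45, 6.47 and 7.05 on the SG replicates, and 5.76, 6.03 and 5.89 on the IFE replicates. The compartments did not overlap, and the lowest HF array lay above the highest SG array. Fads3 was 8.36-fold higher in HF than in IFE (log2 difference 3.06 ± 0.24 SE, n = 3 per group, limma adjusted p = 1.60e-05) and 4.93-fold lower in SG than in HF (-2.30 ± 0.24, limma adjusted p = 0.000288). The difference between SG and IFE, 0.76 ± 0.24, had a limma adjusted p of 0.0378 and stayed below the log2 threshold. The highest SG value was again on SG replicate 3, and without it the difference from IFE was 0.57 (limma adjusted p = 0.107). Median centring brought it to 1.00 and over the threshold. The lowest HF value was on HF replicate 2, which had the lowest hair shaft and root sheath level of the HF arrays, 11.85 against 12.46 and 12.50.

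Fads3 was the member with the most probe sets. Of 16, 15 were called higher in HF than in IFE, by 1.03 to 4.18, and 14 were called lower in SG than in HF. The probe sets 4963985 and 5469199 moved little between SG and HF, by -0.30 and -0.33. The first was the brightest, at 9.35, 9.31 and 9.35 on the HF replicates, 8.90, 9.09 and 9.09 on the SG replicates, and 8.43, 8.23 and 8.23 on the IFE replicates. With it as the gene value, Fads3 was not called between SG and HF (-0.30, limma adjusted p = 0.266) and the difference between HF and IFE was 1.03, against 3.06 for the median of its probe sets, and still called.

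Fads1 encodes a desaturase of polyunsaturated fatty acid synthesis. Its value was 7.41, 7.24 and 7.17 on the HF replicates, 6.45, 6.99 and 6.78 on the SG replicates, and 6.56, 6.02 and 6.02 on the IFE replicates. The HF arrays lay above all others, and the SG and IFE arrays overlapped. Fads1 was 2.10-fold higher in HF than in IFE (1.07 ± 0.20, limma adjusted p = 0.00494), close to the threshold. The call ended without IFE replicate 2 or 3 (0.98 each), with a pseudocount of 16 (0.92) and with the letter block (0.92, limma adjusted p = 0.0761). Between SG and IFE the difference was 0.54 (95% interval 0.10 to 0.99, limma adjusted p = 0.0779) and between SG and HF -0.53 (-0.97 to -0.08, limma adjusted p = 0.142). Of its 8 probe sets, 2 were called higher in HF than in IFE. Most had a higher r with another member than with the other Fads1 probe sets. For probe set 5603321 the latter r was -0.15.

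Fads2 encodes the desaturase that starts polyunsaturated fatty acid synthesis. Its value was 7.02, 7.08 and 7.42 on the HF replicates, 6.56, 6.64 and 7.06 on the SG replicates, and 6.14, 6.28 and 6.11 on the IFE replicates. The IFE arrays were lowest without overlap, and SG replicate 3 reached into the HF range. The difference between HF and IFE, 0.999 ± 0.19, had a limma adjusted p of 0.00457 and fell just short of the threshold of 1. It was called in 12 of 23 other settings, among them quantile normalization (1.03), median centring (1.10), the mean of the probe sets (1.16) and a setting with no minimum log2 difference. Of its 10 probe sets, all differed in the same direction between HF and IFE and 7 were called. Between SG and IFE the difference was 0.58 (95% interval 0.17 to 0.99, limma adjusted p = 0.0461), and between SG and HF it was -0.42 (-0.83 to -0.01, limma adjusted p = 0.203).

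Fads6, whose enzyme activity is less well described, did not pass in any comparison. Its value was 7.71, 7.82 and 7.77 on the SG replicates, 7.48, 7.57 and 7.60 on the HF replicates, and 7.30, 7.67 and 7.95 on the IFE replicates. The IFE arrays spanned the range of the other compartments. The log2 differences were 0.13 between SG and IFE (95% interval -0.27 to 0.53), -0.09 between HF and IFE (-0.49 to 0.31) and 0.22 between SG and HF (-0.18 to 0.62). None of its 7 probe sets was called by limma in any comparison, and 0 had an unadjusted p under 0.05.

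**Figure D5:**
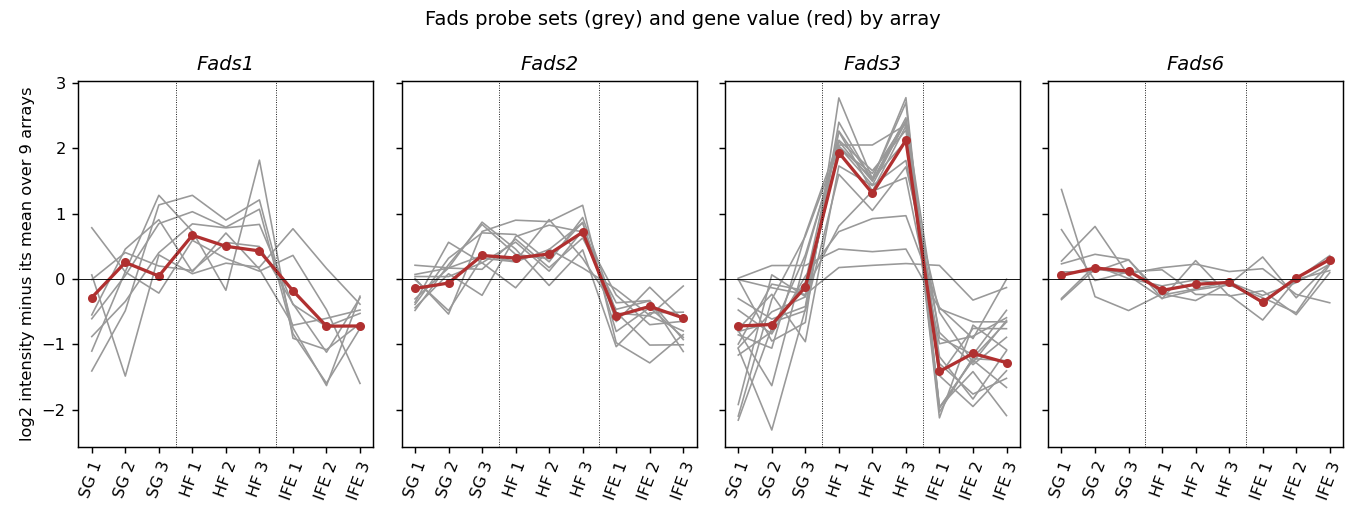
Log2 intensity of each Fads probe set (grey) and of the gene value (red), each minus its mean over the 9 arrays (vertical axis), by array. Lines only join the values of a probe set. Most Fads3 lines peak on the HF arrays, and the Fads6 gene value stays between 7.30 and 7.95 over the arrays.

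Within the Fads family, Fads3 moved away from Fads1 and Fads2 on HF arrays. Fads1 minus Fads3 and Fads2 minus Fads3 were lower in HF than elsewhere (shifts of -1.88 and -1.97, each with the smallest exact permutation p, 0.0119, and an adjusted p of 0.0476). Fads3 minus Fads6 (2.83) and Fads2 minus Fads6 (0.86) were higher in HF with the same p. Fads1 minus Fads2 was -0.10, 0.35 and -0.28 on the SG replicates, 0.38, 0.15 and -0.25 on the HF replicates, and 0.42, -0.27 and -0.09 on the IFE replicates. Its compartments overlapped, and its shift in HF was 0.09 (exact permutation p = 0.679). The Fads3 and Fads2 windows are shown because both genes had their highest mean in HF. They lie at chr19:10041298-10041547 on the plus strand and chr19:10101504-10101753 on the minus strand (RefSeq, GRCm38.p6). Capitals mark CCAAT on either strand.
Fads3: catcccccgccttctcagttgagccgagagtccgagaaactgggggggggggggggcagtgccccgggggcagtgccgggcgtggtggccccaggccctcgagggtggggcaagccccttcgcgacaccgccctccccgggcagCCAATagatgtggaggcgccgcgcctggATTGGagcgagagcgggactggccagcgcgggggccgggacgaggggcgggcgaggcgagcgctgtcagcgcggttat
Fads2: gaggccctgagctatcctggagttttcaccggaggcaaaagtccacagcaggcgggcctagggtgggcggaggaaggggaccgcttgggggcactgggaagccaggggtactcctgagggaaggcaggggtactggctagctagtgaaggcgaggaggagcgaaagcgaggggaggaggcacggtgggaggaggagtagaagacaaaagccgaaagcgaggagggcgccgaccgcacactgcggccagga
The Fads3 window holds CCAAT on the gene's strand 106 bases before the start and its reverse complement 78 bases before it, and the Fads2 window holds 0 matches. GGGCGG on either strand occurred 2 times in the Fads3 window and 1 time in the Fads2 window. The windows were 74.4% and 64.8% G and C, against 52.4% for Scd3 and 49.6% for Scd4.

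For the 7 genes that passed the F test, the genes most like them over the 9 arrays, by Pearson r of gene values among 13728 named genes, differed between the families. The arrays share compartments, so these r values describe the samples only. For Scd1 they were Tm7sf2 (0.99), a sterol reductase, the lipid droplet coat gene Plin2 (0.99), Epb41l2 (0.99), Sec14l4 (0.99) and Echdc1 (0.99). For Scd3 they were Gpx4 (0.99), which reduces lipid peroxides, Lhpp (0.98), the steroid dehydrogenase gene Hsd3b6 (0.98), the monoglyceride lipase gene Mgll (0.98) and the fatty acid hydroxylase gene Fa2h (0.98). For Scd2 they were the leucyl-tRNA synthetase gene Lars (0.99), the cholesterol sulfotransferase gene Sult2b1 (0.99), Atp6ap2 (0.99), Klc1 (0.99) and Tmem54 (0.99). For Scd4 they were Abhd17a (0.93), Tmem263, Ramp1, Ndufb8 and Tor4a (0.92 each).

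For Fads3 the most like genes were Rgl1, Nav2, Sytl2, Tpm1 and Efhd1 (0.99 each). For Fads2 they were Afap1l1 (0.99), Tiam2 (0.99), the transcription factor gene Sox4 (0.99), Sorbs2 (0.98) and Tspan13 (0.97). For Fads1 they were Eif2s3y (0.98), Adamts20, Car7, Cacna2d3 (0.96 each) and Parm1 (0.95). Eif2s3y is a gene of the Y chromosome and the animals are described as females, so what its probe sets read is not known. Among the members, r was 0.95 between Scd1 and Scd3, -0.87 between Scd1 and Scd2, 0.90 between Fads2 and Fads3, and -0.03 between Scd1 and Fads3.

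Desaturation needs electrons, which cytochrome b5 reductases pass to cytochrome b5 and on to the enzyme. FADS1, FADS2 and FADS3 carry a cytochrome b5 domain of their own. Of 7 genes of this supply, 2 rose in SG over IFE and 0 fell: the reductase gene Cyb5r3 (1.85 ± 0.31) and the cytochrome gene Cyb5b (1.57 ± 0.24). Both were also higher in SG than in HF, Cyb5b by 1.94 and Cyb5r3 by 1.48. The call of Cyb5r3 against HF ended without HF replicate 1 (1.22) or HF replicate 3 (1.44). Between HF and IFE limma called 0 of 7, and 2 had an unadjusted p under 0.05; without HF replicate 2, 1 was called lower. The median differences of the list were 0.06, -0.08 and 0.08 for SG against IFE, HF against IFE and SG against HF, beside -0.06, -0.07 and -0.02 for all genes. The marker lists of SG and HF moved with these comparisons, and their part in the counts of this and the following lists was not tested.

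The supply of saturated acyl chains was measured by 6 genes of fatty acid synthesis and 12 of elongation. Of the synthesis genes, 3 were higher in SG than in IFE, the carboxylase gene Acacb (2.49 ± 0.30), the citrate carrier gene Slc25a1 (1.62 ± 0.27) and the fatty acid synthase gene Fasn (1.25 ± 0.24), and 1 was lower, Acaca (-1.18 ± 0.25). The call of Acaca ended without SG replicate 1 (-0.91), and the brightest probe set turned it to 0.54. With the brightest probe set Acacb (0.68) and Fasn (0.70) were not called against IFE, nor Acacb against HF (0.56). Against HF, 4 of 6 were higher in SG, among them Acacb (1.71), Slc25a1 (1.45) and Fasn (1.18), and between HF and IFE limma called 0 of 6, with 2 at an unadjusted p under 0.05. The median differences of the list were 0.92, 0.02 and 1.17 in the order SG against IFE, HF against IFE and SG against HF. The call of Fasn against HF ended without SG replicate 1 (0.998).

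Of the elongation genes, Elovl3 (4.37 ± 0.24) and Elovl6 (3.60 ± 0.44), which extends palmitate to the stearate that SCD enzymes use, were higher in SG than in IFE. Elovl3 is also a marker of the sebocyte list. Elovl7 (-1.45), Elovl1 (-1.33) and Elovl5 (-1.18), which extends polyunsaturated chains, were lower. Elovl1 (-0.93) and Elovl5 (-0.88) were not called with quantile normalization, nor Elovl5 without SG replicate 2 (-0.97). Against HF, 5 of 12 were higher in SG, led by Elovl6 (3.02), Elovl3 (1.59) and Elovl4 (1.31), and the median difference of the list was 0.82, beside 0.45 for SG and -0.34 for HF against IFE. In HF, Elovl3 was higher than in IFE (2.78) and Elovl1 (-1.37) and Elovl7 (-1.11) were lower. With the brightest probe set Elovl4 was not called (0.46), and with quantile normalization Elovl7 in HF was not (-0.88).

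Among 18 measured regulators of desaturase genes, most were not called. The nuclear receptor gene Pparg (3.38 ± 0.30) and Ppara (1.13 ± 0.24) rose in SG over IFE, and Mbtps2, a protease that releases SREBP, was lower (-1.35 ± 0.30). Pparg (2.60), itself a marker of the sebocyte list, and Ppara (1.13) were also higher in SG than in HF. The Ppara calls ended without SG replicate 1 (0.88 against IFE and 0.87 against HF), and against HF also without HF replicate 3 (1.10). Srebf1, which encodes the main lipogenic SREBP, was not called, with a difference of -0.21 between SG and IFE and -0.37 between HF and IFE. The liver X receptor gene Nr1h3 stood at 0.01 and 0.30. Between HF and IFE limma called 0 of 18, while 11 had an unadjusted p under 0.05, and 2 were called lower without IFE replicate 1. No share of all genes at an unadjusted p was worked out for this or the other lists, so such counts have no background. The median difference of the list between HF and IFE was -0.19, beside -0.15 between SG and IFE and -0.05 between SG and HF.

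Other membrane desaturases and hydroxylases of lipids split as well, with 2 of 8 measured higher and 2 lower in SG than in IFE. Fa2h (4.87 ± 0.35), a marker of the sebocyte list, and the sterol oxidase gene Msmo1 (1.35 ± 0.30) were higher. The sterol desaturase gene Sc5d (-2.45 ± 0.21) and the ceramide desaturase gene Degs1 (-2.05 ± 0.29) were lower. In HF against IFE, Fa2h was higher (2.23) and Degs1 (-2.20) and Sc5d (-1.48) were lower. Against HF, Fa2h (2.64) and Msmo1 (1.60) were higher in SG. Msmo1 was not called between SG and IFE with the brightest probe set (0.99). The median differences of the list were 0.56, -0.24 and 0.63 in the order SG against IFE, HF against IFE and SG against HF.

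Esterification of monounsaturated acyl groups, and their reduction to alcohols, was measured by 12 genes, of which 4 rose in SG over IFE and 1 fell. The reductase gene Far2 (5.34 ± 0.29), the sterol acyltransferase gene Soat1 (4.63 ± 0.34) and the wax synthase gene Awat2 (1.46 ± 0.20) led, and Dgat2, for triglycerides, was lower (-1.91 ± 0.21). Far2, Soat1 and Awat2 are also in the sebocyte list by which the titles were checked, so their rise is no separate finding. With the brightest probe set Awat2 was not called (0.26). Against HF, 5 of 12 were higher in SG, led by Soat1 (2.87), Far2 (2.82) and Dgat1 (1.46). In HF against IFE, Far2 (2.52) and Soat1 (1.76) were higher and Dgat2 was lower (-1.52). The brightest probe set gave 0.90 for Soat1 there, which was not called. The median differences were 0.58 for SG against IFE, 0.17 for HF against IFE and 0.53 for SG against HF.

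Of 17 genes that release or oxidise polyunsaturated fatty acids, 7 were lower in SG than in IFE and 7 were lower in HF than in IFE, with none higher in either. The lipoxygenase genes Alox12b (-2.96 ± 0.26), Aloxe3 (-2.70 ± 0.21) and Alox12 (-2.60 ± 0.20) led in SG, and Aloxe3 (-2.45), Alox12b (-2.39) and Alox12 (-1.98) in HF. These lipoxygenase genes are known from the cornifying epidermis. Of the suprabasal marker list, 5 of 8 were lower in SG and 5 of 8 in HF than in IFE. Its part in these counts was not tested. The median difference of the 17 genes was -0.76 in SG and -0.41 in HF. Between SG and HF 1 of 17 was called, Alox8 (-1.27 ± 0.34, limma adjusted p = 0.0370), a call that ended without SG replicate 1 or 2 or without HF replicate 1, 2 or 3 (-1.06 to -1.38), with the brightest probe set (-0.87) and with the letter block (-1.18). In the list, 1 gene was called higher in SG than in HF without SG replicate 3 and 1 without HF replicate 3, and 1 was called higher in SG than in IFE without SG replicate 2 or IFE replicate 1. Alox12b was not called between SG and IFE with the brightest probe set (-0.93).

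Among 10 acyl-CoA synthetase genes, Acsm3 (3.11 ± 0.24) exceeded its IFE level in SG and Acsl1 (-2.37 ± 0.26) fell short of it. Without SG replicate 3 the list had 4 genes called higher and 2 lower there, and without IFE replicate 2 or 3 it had 2 higher. In HF against IFE, Acsm3 (1.88) and Acsl3 (1.18) were higher, and Acsl1 (-2.12) and Acsl4 (-1.35) were lower. Acsl4 (1.88), Acsl5 (1.37) and Acsm3 (1.23) were among the 4 higher in SG than in HF, and Acsl3 was lower (-1.99). The calls in HF against IFE ended for Acsl3 without HF replicate 3 (1.03), IFE replicate 2 (1.10) or IFE replicate 3 (1.10), and for Acsl4 without HF replicate 1 (-1.26) or IFE replicate 2 (-1.12). The call of Acsl5 ended without SG replicate 1 (1.12), SG replicate 2 (1.23), HF replicate 1 (1.26) or HF replicate 3 (1.39). With the brightest probe set Acsm3 stood at 0.96, 0.62 and 0.34 in the order SG against IFE, HF against IFE and SG against HF, and was called in none. Against HF it was also not called without SG replicate 3 and HF replicate 2 together (0.81). The median differences of these genes were 0.51, 0.06 and 0.50 in the same order. With the brightest probe set the call of Acsl5 ended (0.70).

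The letter block, in which the differences rest on fewer arrays, ended further calls of the pathway genes named above. Between SG and HF these were Dgat1 (0.98), Acacb (1.43), Slc25a1 (1.32), Fasn (0.95), Elovl4 (1.04), Ppara (0.82), Msmo1 (1.23), Cyb5r3 (1.37), Acsl4 (1.57) and Acsl5 (1.01). Between SG and IFE they were Fasn (1.14), Msmo1 (1.19), Elovl5 (-1.09), Acaca (-0.79) and Ppara (0.96). Between HF and IFE they were Acsl3 (1.14), Acsl4 (-1.34) and Elovl7 (-1.11).

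Immediate early genes, which respond to handling of tissue, fell in SG against IFE for 8 of the 9 genes and in HF against IFE for 5. Their mean log2 level was 9.41 to 10.31 on IFE arrays, 8.41 to 8.88 on HF arrays and 7.81 to 8.15 on SG arrays. Among the compartments, Scd2 was highest where they were highest. Over IFE replicates 1 to 3 their level was 10.31, 10.10 and 9.41, and that of Scd2 was 10.05, 10.47 and 10.62. Their part in the Scd2 difference was not tested.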

How the data were processed

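Exon arrays of 9 pooled dissections, 3 per compartment, were compared by sample title. Each value was deposited by the authors as a linear intensity per probe set; the submitters' processing notes name RMA, Affymetrix Power Tools and mm9, without versions or roles. No source used here gives a detection call, so signal over background is not known, and dim genes may show compressed differences. Deposited intensities ran from 2.5 to 30815, and array medians differed.

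The log2 was taken without pseudocount or further normalization. Gene values were medians over probe sets with 1 platform symbol, updated by RefSeq synonyms. Fits used limma 3.58.1 (R 4.3.3) on the 9 arrays, with 1 mean per compartment and eBayes, with Benjamini-Hochberg adjustment over 14507 genes or 154736 probe sets. Each SE and interval is that of the fit. The code was tested on simulated data. The number of arrays limits the precision. Whether replicate numbers pair the arrays is not known, and the fits did not pair them. Deviations of same-numbered arrays of different compartments correlated at -0.02 to 0.23 (mean 0.07). Those of differently numbered arrays correlated at -0.16 to 0.11 (mean -0.04).

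The members and lists were chosen with earlier results of these data known. The rule named all members, their 5 most correlated genes and, per list and comparison, up to 3 called genes with the largest difference in each direction; Srebf1, Nr1h3 and Fabp4 were named after their values were seen. The alternatives were the probe set summary, normalization, pseudocount, filter, variance model, blocks, thresholds and arrays left out. Coordinates belong to the RefSeq assembly GRCm38.p6, not to mm9.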

Additional observations from a re-analysis of the deposited data

How the results depend on the processing

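With the replicate number as a block, the counts of desaturase genes called were 3, 3 and 4 for SG against IFE, HF against IFE and SG against HF, as without it, and this replicate block changed no call of a member. Between SG and IFE the count was 5 with median centring and 6 with no minimum log2 difference. Quantile normalization moved the median difference of all genes between SG and IFE from -0.06 to 0.16, and the share of called genes that were higher from 26.7% to 56.1%; with median centring that share was 53.0%. In the letter block, SG replicate 1, HF replicate 1 and IFE replicate 3 add nothing to the differences, so its counts cannot be laid to the letter. It gave 21 probe sets called between SG and IFE, 14 between HF and IFE and 0 between SG and HF. With 1 array left out, the probe sets called numbered 24 to 33, 19 to 33 and 18 to 39 in that order, and the genes called 3 to 4, 2 to 4 and 3 to 4. The pair tests had 9 calls of 36. They had 0 with the brightest probe set or the brighter probe sets, where the joint adjustment can end every pass at once. They also had 0 with any 1 array left out, or with SG replicate 3 and HF replicate 2 left out together. With fewer arrays the exact test has fewer splits, so the counts with arrays left out say nothing about stability. The uncalled Fads6 difference changed sign between HF and IFE with the mean of probe sets (0.0026), quantile normalization (0.0094), median centring (0.018) and the letter block (0.10), and between SG and IFE with the brightest probe set (-0.12). With 1 array left out it ranged from -0.26 to 0.068 and from -0.042 to 0.29. Leaving out the dimmer 50% of genes removed Scd4, Fads1, Fads2 and Fads3, so no count over all members could be had there.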
